A study of Macaca fascicularis with 10 samples.

Results

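The genes described here are 144 of the 7229 rows of a table of allele counts, chosen because their names begin with the symbols of protein kinase and phosphatase families (MAPK, MAP2K, MAP3K, MAP4K, CDK, CAMK, PRK, STK, DYRK, CSNK, PIK3, AKT, RPS6K, DUSP, PPP, PTPR and PTPN, while no GSK3 row was present). The samples are RNA libraries from 10 female cynomolgus macaques (Macaca fascicularis), each labelled with a mother and a father, made from the dorsal raphe nucleus, where much of the brain's serotonin is made. All 10 daughters form 1 group with no treatment, and no genotype, strain or age was given in the sources used here. By the labels, daughters 1, 7 and 8 share a father, daughters 4 and 5 share another, and daughters 6 and 10 share a mother. The tests and SDs below take no account of this. For every gene and daughter the table gives the reads assigned to the paternal and to the maternal allele, so the measurement is the balance of the alleles within 1 animal. Depth differed widely, with 30090 allelic reads in daughter 1 and 999471 in daughter 6, and precision is lowest in daughter 1. The tissue label was checked against marker genes. Of 8 serotonin neuron markers 5 had a row, TPH2 with 9561 allelic reads and 10 or more in 7 daughters, DDC with 1924 in 5, SLC18A2 with 743 in 3, SLC6A4 with 423 in 2 and GCH1 with 53 in 3, while FEV, MAOB and HTR1A were not analysed here. Markers of other cells also had reads, among them GAD1 (2295) and GAD2 (2315) of GABA neurons, and VWF (1889), FLT1 (974) and PECAM1 (333) of endothelium. The choroid plexus marker TTR had 764 reads, but KL had 38 and FOLR1 33. Of the catecholamine neuron markers, TH had 355 reads and SLC6A3 192, but DBH had 15 and SLC6A2 4. SLC32A1 (GABA neurons) and CLDN5 (endothelium) were not analysed here. No marker fixed for astrocytes, oligodendrocytes or microglia was a row of the table, so these cells were not analysed here. The allele counts therefore bear on the tissue label only through these genes. Because the samples are bulk tissue, fewer cells of a type and less RNA per cell cannot be told apart.

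Protein kinases transfer phosphate from ATP to serine, threonine or tyrosine residues, and phosphatases remove it. Many kinases are held in check by regulatory subunits, and most serine/threonine phosphatase activity is directed to its targets by a large set of such subunits around a few catalytic ones. In neurons these enzymes carry signals from growth factor receptors (the MAP kinase cascade), from cyclic nucleotides, calcium and diacylglycerol (protein kinases A, G and C and the calmodulin kinases) and from phosphoinositides (the PI3-kinase and AKT pathway), while receptor tyrosine phosphatases of the PTPR family join adhesion at the cell surface to phosphatase activity inside. Most genes of this kind are read from both alleles. X-linked genes are the usual exception in females, since each cell keeps 1 X chromosome largely silent.

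By known function, 67 of the 144 genes encode protein kinases, 3 encode lipid kinases, 33 encode phosphatases, 22 encode phosphatase subunits or partners, and 19 encode kinase subunits, activators, scaffolds or other partners. The names do not always tell the function. PRKCSH encodes a subunit of glucosidase II, an enzyme of the endoplasmic reticulum that trims sugar chains, CDK5RAP2 encodes a centrosome protein, and DUSP11 encodes a phosphatase that acts on RNA. The genes together took 1.80% ± 0.27 of the allelic reads of a daughter (SD, n = 10). A share needed 10 or more allelic reads in a daughter, which gave 680 values in 127 genes. Of these genes, 73 were measured in 5 or more daughters, 54 in 1 to 4, and 6 in all 10 (PRKDC, PTPRB, PTPRD, PTPRJ, PTPRS and PTPRZ1). In 17 genes no daughter reached 10 reads: CDK3, CDK15, CDK5R1, DUSP4, DUSP9, DYRK2, MAP3K15, MAP4K1, MAPK1IP1L, MAPK7, PIK3C2G, PIK3R6, PPP1R13L, PPP1R26, PRKCDBP, PRKD2 and PTPRCAP. Read numbers follow how many positions tell the parents apart as well as expression, so the levels of genes are not compared.

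Both alleles contributed about equally to most of these genes. The paternal share, which is the paternal reads as a percent of both, had a median of 50% over the 680 values, and 511 of them (75.1%) lay between 40% and 60%. Among all 27887 such values 69.8% did, with a median of 54 reads per value against 73 for the kinase and phosphatase genes. In the 73 genes with 5 or more daughters the mean share ranged from 31.2% in PRKX to 61.2% in STK32B, and it lay between 45% and 55% in 57 of them (78.1%), beside 77.3% of 2981 genes in the whole table. The 95% Wilson interval of a single value lay wholly off 50% in 125 of 680 (18.4%), beside 20.1% of all values. Of those 125, 60 were higher on the paternal and 65 on the maternal allele. These shares were near those of the table as a whole. These intervals hold counting error alone and treat reads as independent. Several reads can stem from 1 molecule, so the intervals can be too narrow and too many can lie off 50%.

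**Figure D1:**
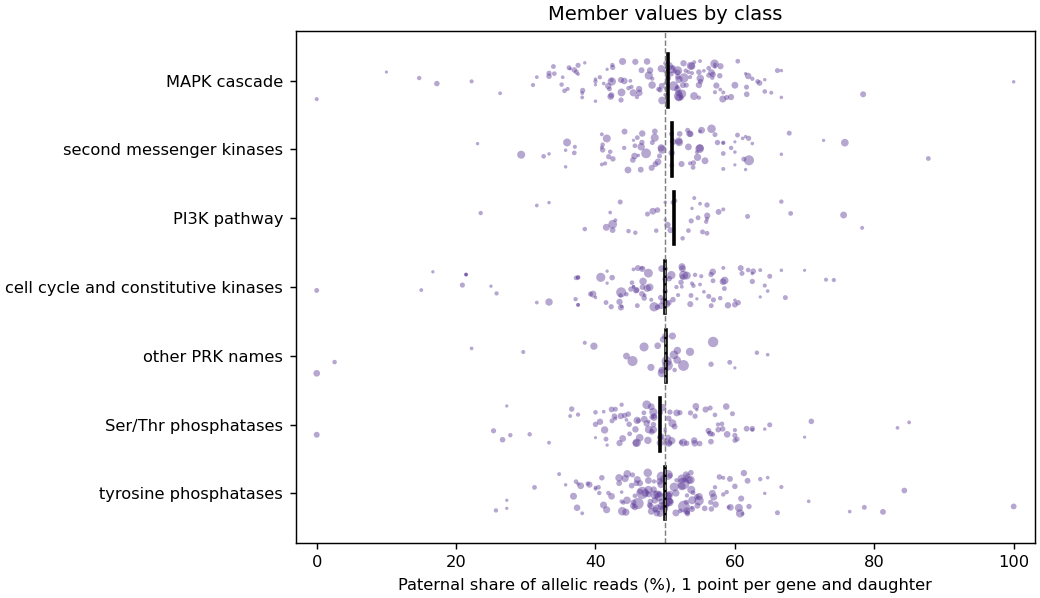
Paternal share of allelic reads (%, horizontal axis) of 7 classes of kinase and phosphatase genes, 1 point per gene and daughter with 10 or more reads, larger points for more reads, black bars at the class medians and a dashed line at 50%. The medians lie between 49.3% and 51.3%, and few points lie below 30% or above 70%.

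The first comparison asked whether the paternal or the maternal allele of any of these genes was the higher one across the daughters. None was called. By edgeR's quasi-likelihood test, blocked by daughter, 0 of 73 kinase and phosphatase genes passed a Benjamini-Hochberg adjusted p of 0.05 over 2981 genes (0% of all genes were called), and DESeq2 called 0 as well. At an unadjusted p under 0.05 there was 1 of 73 with edgeR, beside 3.12% of all genes, and 0 with DESeq2. The log2 ratio of paternal over maternal reads was above 0 in 36 genes and below 0 in 37, with a median of -0.00039, beside -0.0069 over all 2981 genes. A gene that is unequal, but on differing sides in different daughters, is not found by this test.

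The gene with the smallest p was AKT1S1, whose product PRAS40 is a substrate of AKT that restrains the growth kinase mTOR. Its paternal share was 61.8%, 55.4%, 68.0%, 66.7% and 51.1% in daughters 3, 4, 5, 6 and 10, a mean of 60.6% ± 7.26 (SD, n = 5) and a log2 ratio of 0.61 ± 0.24 (SE, edgeR adjusted p = 1). All 5 values were on the paternal side, with daughter 10 nearest to equal shares. STK32B, a serine/threonine kinase, had 64.3%, 66.7%, 52.4%, 62.5% and 60% in daughters 2, 3, 5, 8 and 9, a mean of 61.2% ± 5.48 (SD, n = 5, edgeR adjusted p = 1) from 95 reads. These were the 2 genes of the 73 with a paternal share above 50% in every daughter measured, a state found in 0.772% of the 2981 genes. None of the 73 was below 50% in every daughter, beside 1.24% of all genes. Among the next on the paternal side were the JNK scaffold MAPK8IP3 at 53.0% ± 4.62 (SD, n = 9), the cGMP-dependent kinase PRKG2 at 56.6% ± 6.87 (SD, n = 5), and the phosphatase 4 subunits PPP4R1 at 55.3% ± 7.98 (SD, n = 6) and PPP4R4 at 52.9% ± 5.99 (SD, n = 7). On the maternal side, among the smallest p values were those of MAP3K19 at 40.3% ± 14.6 (SD, n = 5), PPP2R5B, a regulatory subunit of phosphatase 2A, at 45.8% ± 3.39 (SD, n = 6), and the tyrosine phosphatase PTPN4 at 45.5% ± 6.18 (SD, n = 9). The kinase CDK20 had 38.8% ± 14.8 (SD, n = 5) from 70 reads. None of these passed, with an edgeR adjusted p of 1 for each.

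In the MAP kinase cascade, MAP4K and MAP3K kinases activate MAP2K kinases, and these activate the MAP kinases. Of the values of these kinases 60 of 84 (71.4%) lay between 40% and 60%, and 99 of 141 (70.2%) did once MAP kinase partners and the genes named RPS6K and DUSP were counted with them. MAP4K4 ranged from 38.1% to 53.8% with a median of 50.1% over 8 daughters, and MAP3K9 from 37.5% to 55.1% with a median of 49.8% over 8. MAP4K5 was wider, from 33.3% in daughter 7 to 78.4% of 125 reads in daughter 4 (95% Wilson interval 70.4 to 84.7), with a median of 47.6% over 7. Daughter 5, a half-sister of daughter 4 by the father label, had 47.4% of 173 reads. MAP3K19 had 53.8%, 51.2%, 17.2%, 37.0% and 42.4% in daughters 2, 3, 4, 5 and 8, so that daughter 4, with 87 reads (interval 10.7 to 26.5), held the lowest value. Among the MAP2K kinases, MAP2K2, which activates the ERK kinases, averaged 53.6% ± 5.0 (SD, n = 6) and MAP2K7, which activates the JNK kinases, 52.0% ± 8.46 (SD, n = 8). MAP2K3, an activator of p38 kinases, ranged from 31.6% to 57.1% in 6 daughters and stood at 100% of 14 reads in daughter 10, a value named after it was seen.

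Among the MAP kinases described here, most values were near balance. The JNK kinase MAPK8 had 64.3%, 55% and 51.9% in daughters 1, 3 and 4. MAPK10, the JNK kinase enriched in neurons, lay between 43.7% and 54.1% in the 7 daughters with 147 or more reads and was lower in the 2 with fewest, at 26.3% in daughter 1 (19 reads) and 10.0% in daughter 10 (10 reads), which sets its mean of 41.4% ± 14.4 (SD, n = 9) below its median of 44.1%. All values of the scaffold genes MAPK8IP3 and MAPK8IP1 lay between 40% and 60%. MAPK8IP3 ranged from 46.3% to 60% with a median of 52.0% over 9 daughters, and MAPK8IP1 averaged 44.2% ± 4.68 (SD, n = 5), highest in daughter 3 at 51.9% of 680 reads, while the other 4 daughters had 40% to 45%. MAPKAPK5, a kinase downstream of MAP kinases, averaged 44.6% ± 5.64 (SD, n = 5). Among ribosomal S6 kinase genes, RPS6KB2 had 51.2% ± 9.91 (SD, n = 8) and RPS6KL1 47.4% ± 10.7 (SD, n = 6). RPS6KA5 was measured in 3 daughters, at 50%, 14.7% and 66.7% in daughters 6, 9 and 10. Of the genes named DUSP, only DUSP11, the RNA phosphatase, was measured in 5 daughters, with 55% ± 12.4 (SD, n = 5).

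Among the kinases that answer second messengers, 66 of 88 values (75.0%) lay between 40% and 60%. CAMKK1, which activates other calmodulin-dependent kinases, ranged from 44.1% to 60% with a median of 50.9% over 9 daughters, and CAMK2A, a major kinase of synapses, had 45.6%, 55.7%, 55% and 48.5% in daughters 4, 5, 7 and 10. CAMK1D lay between 32.6% and 52.3% in 6 daughters and reached 87.8% of 49 reads in daughter 9 (interval 75.8 to 94.3). Of the protein kinases C, PRKCA averaged 47.4% ± 5.76 (SD, n = 7) and PRKCE 48% ± 8.76 (SD, n = 7). PRKCB lay between 44.7% and 62.0% in 7 daughters and at 75.8% of 322 reads in daughter 10 (interval 70.8 to 80.1). PRKAR1A, the regulatory subunit of protein kinase A that binds cyclic AMP, was spread on both sides with many reads. The paternal share was 62.0% in daughter 2 (969 reads, interval 58.9 to 65.0) and 61.3% in daughter 7 (62 reads), but 35.9% in daughter 4 (373 reads, interval 31.2 to 40.9) and 29.3% in daughter 10 (392 reads, interval 25.0 to 34.0). Daughters 5, 8 and 9 lay between 47.3% and 54.6%, and the mean was 48.9% ± 12.4 (SD, n = 7).

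The PI3-kinase pathway had 33 of 42 values (78.6%) between 40% and 60%. PIK3C3, the catalytic lipid kinase of endosomes and autophagy, ranged from 42.5% to 75.6% with a median of 52.0% over 8 daughters. The highest value was that of daughter 5, with 209 reads (interval 69.3 to 80.9), and the next was 57.7%, in daughter 4. PIK3CD, a catalytic subunit of class I PI3-kinase, lay between 38.5% and 55% in 7 daughters and at 78.3% of 23 reads in daughter 10. The kinase AKT1 had 56.0%, 41.6%, 50% and 42.5% in daughters 3, 5, 8 and 9, and AKT2 ranged from 23.5% of 34 reads in daughter 4 to 58.3% in daughter 10 with a median of 54.6% over 6. PIK3IP1, an inhibitor of the pathway, was close to balance at 51.8% ± 4.02 (SD, n = 5).

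In cyclin-dependent kinases, casein kinases, DYRK and STK genes, 83 of 119 values (69.7%) lay between 40% and 60%. STK39, a kinase that regulates chloride cotransporters, ranged from 43.7% to 59.0% with a median of 51.1% over 9 daughters, and CSNK1E, a casein kinase of the circadian clock, averaged 46.6% ± 3.45 (SD, n = 7). CDK5RAP2 stood between 40.8% and 58.5% in 8 daughters, and at 20.9% of 67 reads in daughter 7 (interval 12.9 to 32.1). STK11IP, whose product binds the kinase STK11 (LKB1), was low in 2 daughters, at 25.8% (daughter 2, 31 reads) and 15.0% (daughter 9, 20 reads), and between 46.1% and 65% in the other 7. The kinase STK11 itself ranged from 37.5% to 67.2% with a median of 44.8% over 8 daughters. STK25 averaged 50.2% ± 8.49 (SD, n = 6), CSNK1G2 51.9% ± 16.6 (SD, n = 7), DYRK1B 50.7% ± 8.72 (SD, n = 8), CDK5RAP3 50.8% ± 6.04 (SD, n = 6) and CDK5RAP1 43.5% ± 17.2 (SD, n = 5). Some genes entered by the letters PRK alone. PRKDC, the catalytic subunit of the DNA-dependent kinase of double-strand break repair, ranged from 45.3% to 60% with a median of 51.0% over 10 daughters and 6784 reads. PRKRA, which activates the antiviral kinase PKR, averaged 50.5% ± 4.93 (SD, n = 6).

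Serine/threonine phosphatase genes had 90 of 110 values (81.8%) between 40% and 60%. None of the 5 catalytic genes was measured in 5 daughters. PPP3CA, the catalytic subunit of calcineurin, had 33.3% of 21 reads, 46.0%, 54.2% and 48.4% in daughters 1, 5, 9 and 10, and PPP1CB had 45.9% of 477 reads in daughter 5. Among regulatory subunits, PPP1R12C, of the myosin phosphatase kind, ranged from 47.5% to 65% with a median of 51.7% over 9 daughters, and PPP1R21 from 40.6% to 56.6% with a median of 48.2% over 8. PPP1R9B, which encodes the dendritic spine protein spinophilin, lay between 41.7% and 58.9% in 8 daughters and at 85% of 20 reads in daughter 5. PPP1R1B, which encodes DARPP-32, an inhibitor of phosphatase 1 in neurons that receive dopamine, had 47.6%, 46.2%, 71.0% and 56.5% in daughters 2, 4, 5 and 8. PPP6R1 averaged 53.7% ± 8.08 (SD, n = 8).

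**Figure D2:**
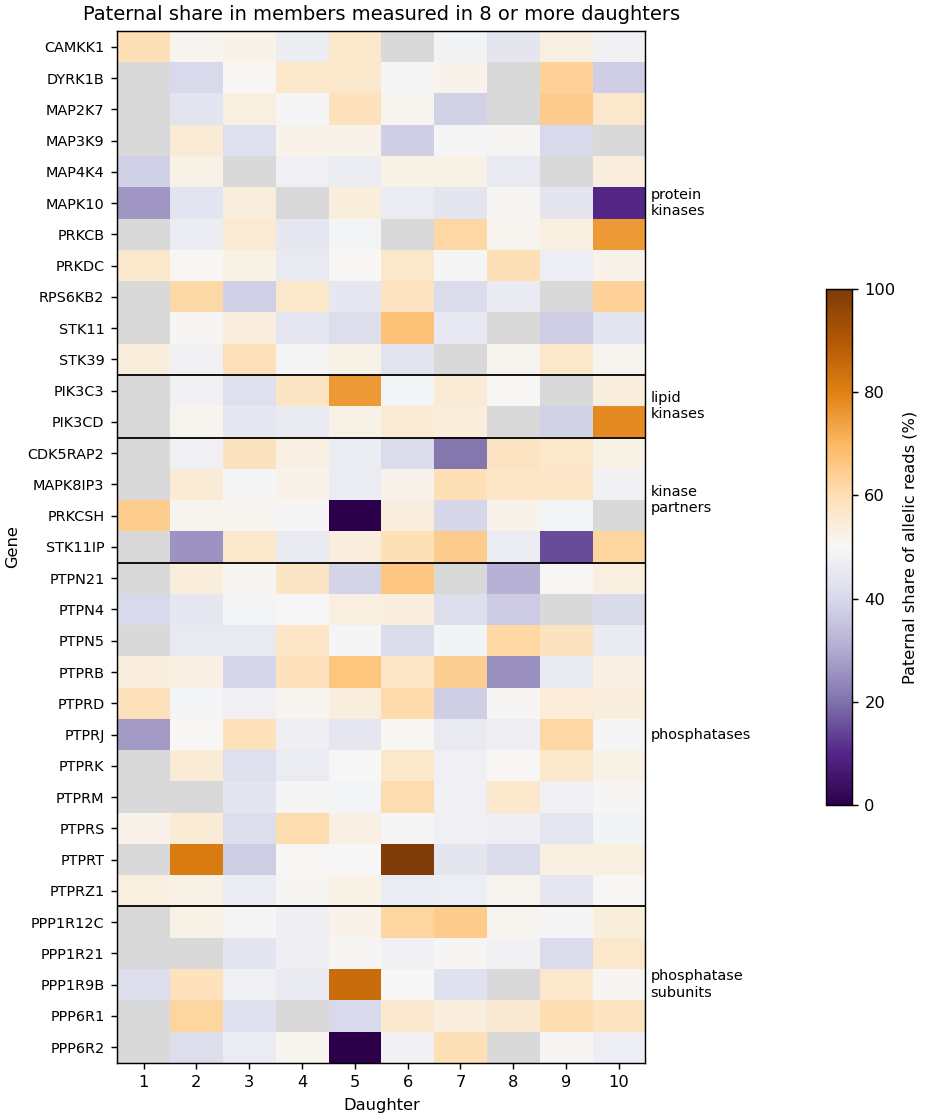
Paternal share (%, colour, purple below 50% and orange above it) of the 33 kinase and phosphatase genes that reached 10 reads in at least 8 daughters (rows, grouped by function) in each of the 10 daughters (columns), with grey where reads were fewer. Most cells are pale, and the darkest are 0% in PRKCSH and PPP6R2 in daughter 5 and 100% in PTPRT in daughter 6.

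Tyrosine phosphatase genes had the most reads per value of the larger classes, a median of 112.5, and 118 of their 150 values (78.7%) lay between 40% and 60%. PTPRZ1, a receptor of glia and their precursors, was among the steadiest genes, with a lowest value of 44.5%, a median of 50.4% and a highest of 53.1% over 10 daughters and 10123 reads. PTPRS and PTPRD, receptors that organise synapses, averaged 49.9% ± 5.4 and 51.9% ± 6.56 (SD, n = 10 each). PTPRJ ranged from 27.3% of 11 reads in daughter 1 to 62.0% in daughter 9, with a median of 48.4% over 10. PTPRG averaged 52.5% ± 3.94 (SD, n = 7), and the adhesion receptors PTPRK and PTPRM 50.8% ± 4.92 (SD, n = 9) and 50.8% ± 5.36 (SD, n = 8). PTPRB, a receptor of blood vessel endothelium, was wider, from 25.7% of 35 reads in daughter 8 to 66.7% of 27 in daughter 5, with a median of 53.4% over 10. PTPRN, a protein of dense-core vesicles with little phosphatase activity, reached 84.3% of 102 reads in daughter 2 (interval 76.0 to 90.1) and 78.6% of 56 reads in daughter 9 (interval 66.2 to 87.3). Daughters 4 and 6, with 243 and 516 reads of it, were balanced at 53.1% and 50.6%. Of the non-receptor enzymes, PTPN4 ranged from 36.8% to 53.7%, PTPN5, which is enriched in the striatum, averaged 50.4% ± 7.03 (SD, n = 9), PTPN13 51.8% ± 4.53 (SD, n = 7) and PTPN21 50.2% ± 10.8 (SD, n = 8).

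Reads came almost wholly from 1 allele in 6 of 582 values with 20 or more reads (1.03%, at 90% or more on 1 side), each in a different gene, beside 1.60% of 22693 values in the whole table. Of the 6, 3 were in daughter 5, where the most of these genes had 20 or more reads (92), and 1 each in daughters 6, 7 and 10. On the maternal side were 5 of them. That split was not counted over all genes, so nothing is read from it. The positions counted, and how they were called and phased, could not be checked from gene totals, and this limits what a value of 0% or 100% in 1 daughter means. PRKCSH had 0 paternal and 184 maternal reads in daughter 5 (95% Wilson interval of the paternal share 0 to 2.05), and between 39.8% and 64.7% paternal in the 8 other daughters. PPP6R2, a regulatory subunit of phosphatase 6, had 0 paternal and 116 maternal reads in the same daughter (0 to 3.21), and between 41.5% and 60% in 7 others. In daughter 4, who has the same father label as daughter 5, the paternal share was 49.6% of 559 reads for PRKCSH and 51.0% of 388 for PPP6R2. Both genes thus had reads from both alleles in every daughter measured other than daughter 5.

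PTPRT, an adhesion receptor phosphatase of neurons, had 107 paternal and 0 maternal reads in daughter 6 (interval 96.5 to 100). Daughter 2 had 81.2% of 112 reads (interval 73.0 to 87.4). The other 7 daughters lay between 37.4% and 53.2%, among them daughter 4 at 50.3% (531 reads) and daughter 5 at 49.9% (477 reads). Daughter 10, who has the same mother label as daughter 6, had 53.2% of 62. CSNK2A1, a catalytic subunit of casein kinase 2, had 0 paternal and 56 maternal reads in daughter 10 (0 to 6.42) and 277 paternal and 305 maternal reads in daughter 2, the only other daughter measured. MAPK15, an atypical MAP kinase, had 0 paternal and 25 maternal reads in daughter 7 (0 to 13.3), 33.3% of 66 in daughter 10, and 58.3%, 62.5% and 54.8% in daughters 4, 5 and 6. CSNK2A1 has a near-identical copy in the human genome, so its values are uncertain.

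None of the genes next to these 6 had 90% or more of its reads on 1 side in the daughter concerned. The nearest genes with 10 or more reads in the same daughter, up to 3 a side, were taken by their order in another assembly, a description added after the values were seen. PRKX had neighbours on 1 side alone. The 6 neighbours of PPP6R2 had 40% to 55.6% paternal in daughter 5, those of PRKCSH 41.8% to 65.3% in daughter 5, those of PTPRT 36.8% to 60% in daughter 6 and those of CSNK2A1 27.8% to 60.5% in daughter 10. Those of MAPK15 ranged from 14.3% to 67.9% in daughter 7, with 4 of the 6 between 40% and 60%. The lowest was EEF1D, at 14.3% of 21 reads. It was the nearest such gene on its side and lay on the maternal side, as MAPK15 did.

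**Figure D3:**
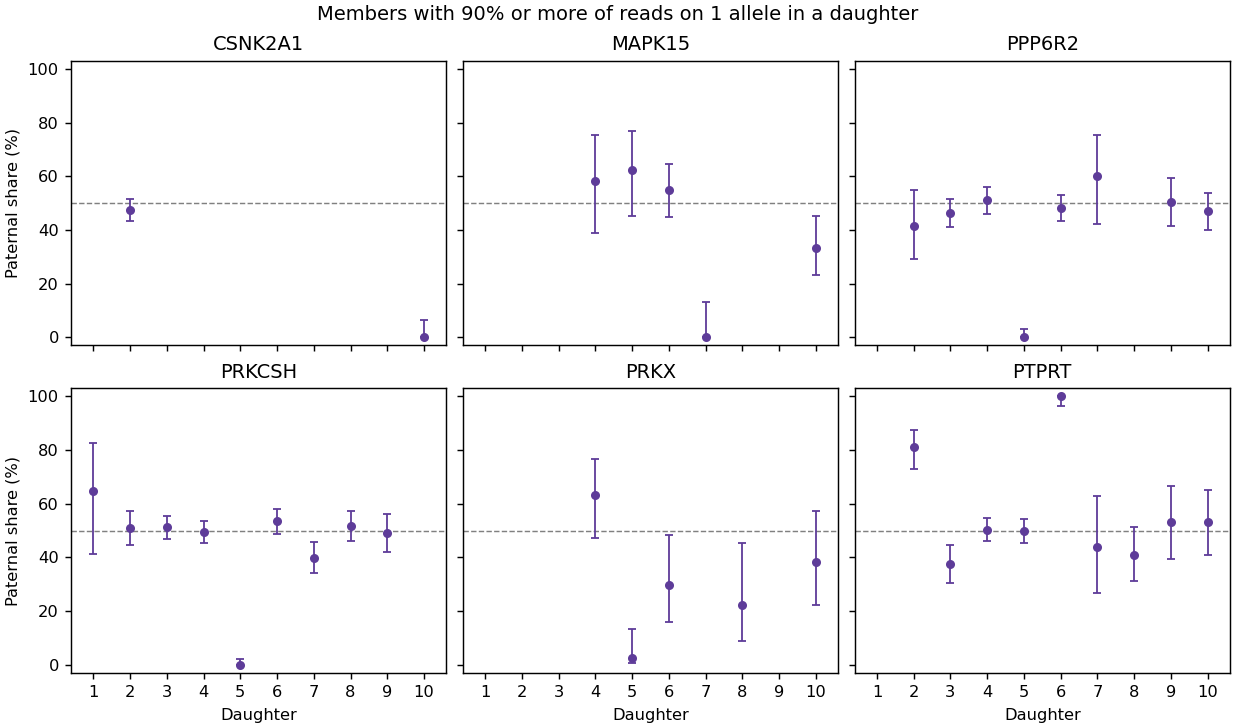
Paternal share (%, vertical axis) by daughter of the 6 genes with 90% or more of 20 or more reads on 1 allele in a daughter, with 95% Wilson intervals and a dashed line at 50%. PRKCSH and PPP6R2 are at 0% in daughter 5 and PTPRT at 100% in daughter 6, while most other points lie between 37% and 65%.

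Values at 70% or more, or at 30% or less, were 31 of 582 (5.33%), beside 7.58% of the table. On the paternal side there were 13, beside 3.62% of all values, and on the maternal side 18, beside 3.95%. They fell in 27 genes. PRKX, PTPRN, PTPRT and STK11IP each had such values in 2 daughters, with both on the same side in each gene. By daughter their number ranged from 0 of 9 in daughter 1 to 7 of 92 in daughter 5, but 6 of 54 in daughter 9 and 5 of 64 in daughter 10 were larger shares. The shares by daughter were not counted over all genes. The 54 genes measured in 1 to 4 daughters had values from 0% to 84.3%, and 106 of their 149 values lay between 40% and 60%.

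Of the 144 genes, 6 are X-linked when their symbols are looked up in RefSeq's genes for T2T-MFA8v1.1, and 4 of these were measured (CDK16, PPP1R3F, PRKX and RPS6KA6). Their paternal share had a median of 36.4% over 19 values, with 5 (26.3%) between 40% and 60%, beside 40.4% and 32.6% for 818 values of the other X-linked genes and 50% and 76.6% for 661 values of the kinase and phosphatase genes outside X. In 15 of the 19 values the gene lay on the same side of 50% as the median of the other X-linked genes of that daughter. These medians by daughter, here and below, were taken over genes with 20 or more reads. The 19 and 818 values needed only 10. The same count was not made for the other X-linked genes, so nothing is read from the 15 of 19. CDK16, a kinase of the PCTAIRE group in neurons, had 39.6%, 33.3% and 43.4% in daughters 2, 5 and 9 (217, 282 and 145 reads), where the other X-linked genes had medians of 39.1%, 27.7% and 43.2%. RPS6KA6, an S6 kinase of the RSK family, was above 50% in daughters 2 and 4, at 54.2% and 66.1%, and below it in daughters 3, 5, 6, 9 and 10, at 34.0%, 36.2%, 42.5%, 35.6% and 22.2%. In daughter 4 the other X-linked genes also lay on the paternal side, with a median of 73.7%. In daughter 2 they lay on the maternal side, opposite to RPS6KA6, with a median of 39.1%. The interval of RPS6KA6 in daughter 2 includes both equal shares and that median (35.1 to 72.1 from 24 reads).

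PRKX, a kinase related to protein kinase A that escapes X inactivation in human, had 63.2%, 2.56%, 29.6%, 22.2% and 38.5% in daughters 4, 5, 6, 8 and 10, from 18 to 39 reads each. Its value in daughter 5, 1 paternal and 38 maternal reads, lay below the median of 27.7% of the other X-linked genes there (interval 0.454 to 13.2). Its 3 nearest neighbours with enough reads in that daughter, all on the same side of it, had 35.0%, 57.9% and 26.9%. In daughter 8 PRKX lay on the maternal side (interval 9.0 to 45.2 from 18 reads) and the other X-linked genes on the paternal, with a median of 52.7%. PPP1R3F, which directs phosphatase 1 to glycogen, had 50%, 44.9%, 36.4% and 25.4% in daughters 2, 3, 7 and 9. In daughter 7 it lay on the maternal side and the other X-linked genes on the paternal, with a median of 57.1% over 32 genes, though its interval there includes equal shares (19.7 to 57.0 from 22 reads). DUSP9 and MAP3K15 had 1 to 7 reads in any daughter.

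**Figure D4:**
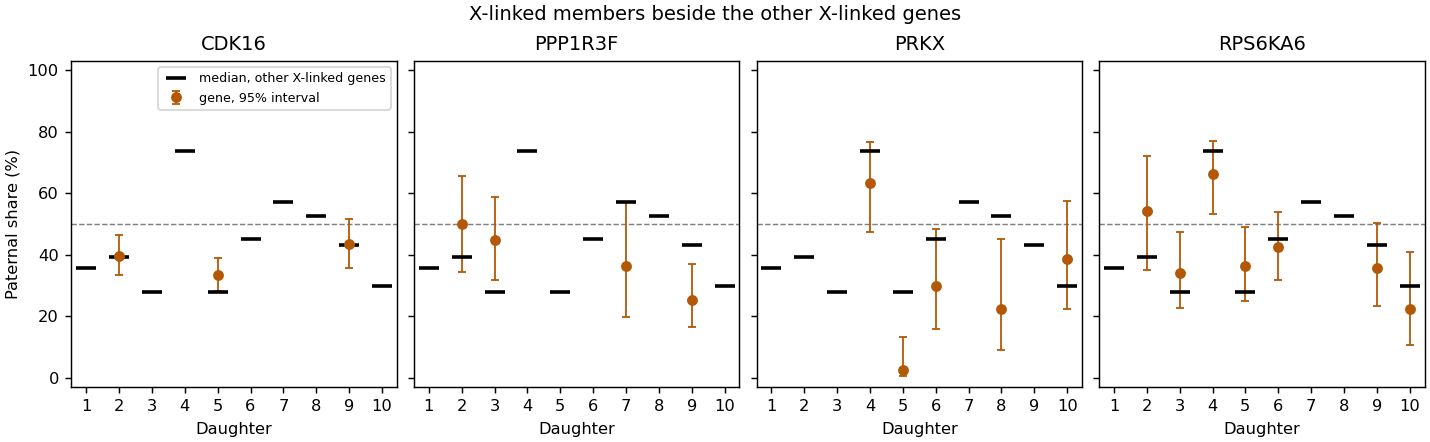
Paternal share (%, vertical axis) by daughter of the 4 X-linked genes measured, as points with 95% Wilson intervals and a dashed line at 50%. Black bars are the median share of the other X-linked genes of that daughter with 20 or more reads. RPS6KA6 and PRKX are above 50% in daughter 4, where the other X-linked genes had 73.7%, and below it in daughters 5 and 10.

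The spread between daughters was then set beside the spread that binomial counting alone gives at the same read numbers. Over the 73 genes the median SD of the paternal share was 8.76 percentage points, beside a counting SD of 6.96, and the median ratio of the 2 was 1.26, against 1.31 over all 2981 genes. Tyrosine phosphatase genes had a median ratio of 1.16 over 16 genes and the MAP kinase cascade 1.39 over 16. Among the 33 genes with 8 or more daughters the smallest SDs were those of PTPRZ1 (3.13, counting SD 3.41), STK39 (4.58 and 4.17), PRKDC (4.61 and 5.64) and MAPK8IP3 (4.62 and 3.26). The largest were those of PTPRT (20.5 and 5.64), PRKCSH (18.3 and 4.90), PPP6R2 (18.2 and 5.03) and STK11IP (17.1 and 6.73). Without daughter 5 the SD of PRKCSH was 6.83 over 8 daughters and that of PPP6R2 5.69 over 7, so 1 daughter decides both. PRKAR1A, with 7 daughters, had an SD of 12.4 beside a counting SD of 3.32 and values far off 50% on both sides.

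**Figure D5:**
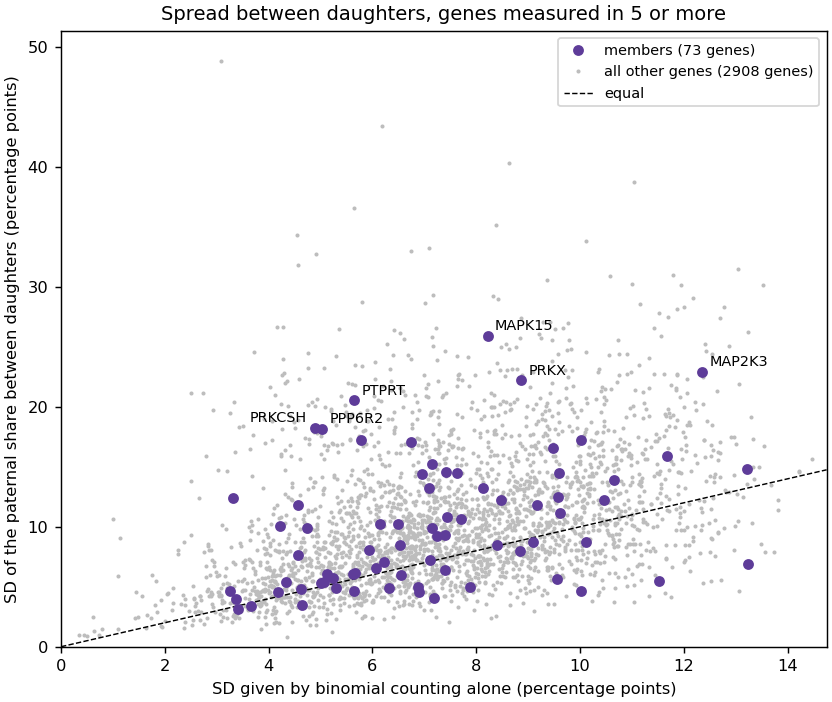
SD of the paternal share between daughters (percentage points, vertical axis) against the SD given by binomial counting alone (percentage points, horizontal axis) for genes measured in 5 or more daughters, with 73 kinase and phosphatase genes in purple, 2908 other genes in grey and a dashed line where both are equal. MAPK15, MAP2K3, PRKX, PTPRT, PRKCSH and PPP6R2 have the highest SDs among the purple points, between 18.2 and 25.9.

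The titles of the samples carry 2 prefixes, 10480 for 4 daughters and 10203 for 6, the only label like a batch. The paternal over maternal ratio differed between prefixes for 0 of the 73 genes and 1 of all 2981 (0.0335%, edgeR's quasi-likelihood test of the interaction, Benjamini-Hochberg adjusted). At an unadjusted p under 0.05 there were 4 of 73 (PTPN4, MAPK15, CAMK1D and PRKCB), beside 3.56% of all genes, and 2 with DESeq2. PTPN4 averaged 39.7% in 3 daughters of prefix 10480 and 48.4% in 6 of 10203, and their log2 ratios of paternal over maternal reads differed by -0.58 ± 0.23 (SE, adjusted p = 1 by edgeR). CAMK1D averaged 70% in 2 daughters of prefix 10480 and 43.8% in 5 of 10203, a log2 difference of 1.37 ± 0.56 (SE, adjusted p = 1 by edgeR), and the difference was 0.52 ± 0.40 without daughter 9. MAPK15 averaged 16.7% in 2 daughters of 10480 and 58.6% in 3 of 10203, and PRKCB 60.6% in 4 and 48.9% in 4. Within prefix 10480 the shares of AKT1S1 and STK32B were 51.1% (n = 1) and 61.3% (n = 2), and within 10203 they were 63.0% (n = 4) and 61.1% (n = 3).

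Genes of the same pathways outside the name rule were examined as lists. Of 28 partners of the MAP kinase cascade (RAS, RAF and their regulators) 5 could be tested, of 18 partners of PI3-kinase 11, of 27 partners of cyclic AMP signalling 6, of 19 calcium and calmodulin partners 1 and of 49 other kinases 20. None was called by edgeR or DESeq2 over all 2981 genes, and with edgeR 1 had an unadjusted p under 0.05, among the cyclic AMP partners. The median log2 ratio of paternal over maternal reads was -0.12, 0.01, -0.04, -0.03 and -0.04 in these lists. PPP1R9A, a phosphatase 1 subunit reported as imprinted in human and mouse, had no row and was not analysed here.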

How the data were processed

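The libraries, from dorsal raphe nucleus RNA of 10 daughters, were stranded and depleted of ribosomal RNA, and were read from both ends for 101 cycles, per the labels' protocols, which also mention a chromatin assay not analysed here. The submitters' processing notes name the aligner Novoalign without its version. Counts per gene of paternal and of maternal reads are whole numbers deposited by the authors, on build macFas5, per the file headers. Phasing, read filters and strand in counting are not stated in the labels or headers, so overlapping genes and near-identical copies stay uncertain. Empty cells were fitted as 0. No column was left unused.

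Daughters had 30090 to 999471 allelic reads, so shares of daughter 1 are least precise. The paternal and maternal columns entered edgeR's quasi-likelihood test (glmQLFit with robust estimation, then glmQLFTest; edgeR 4.0.16, R 4.3.3), with the daughter as block, library size summed over both alleles, and 10 or more reads in 5 or more daughters, which kept 2981 of 7229 genes. The Benjamini-Hochberg threshold was 0.05. The block pairs columns of the same animal. Each SE beside a log2 value was derived as its absolute value over the square root of the test's F statistic. That SE was not reported by edgeR itself. DESeq2 1.42.0 was the other tool, with the same library sizes. Single shares carry 95% Wilson intervals and no test. The counting SD is the binomial SD at a gene's mean share and read numbers.

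Chromosomes were looked up by symbol among RefSeq's genes for T2T-MFA8v1.1, which is another build, so no coordinates are given. It matched 6566 of 7229 symbols and 142 of the 144 genes. Python 3.11.15, NumPy 2.4.6, pandas 2.3.3 and matplotlib 3.10.9 were used.

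The genes and lists were chosen with earlier results of these data known. Genes named were up to 3 per family with the highest mean CPM of allelic reads, the 10 with the smallest p per side, all X-linked or with 90% on 1 side, and the 10 with the largest and the 10 with the smallest SD over 8 or more daughters. Others were named after their values were seen, and 1 gene is not reported here. Alternatives were other normalisations, read minimums, DESeq2, no block, title prefix, autosomal genes, and leaving out each daughter.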

Additional observations from a re-analysis of the deposited data

Results flagged for a closer look

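Of 59 named genes measured in 4 to 10 daughters, 9 (15.3%) had 1 daughter whose paternal share stood far from the others. A daughter was flagged where the gap to the next share was large against the range of the gene's shares. Chance flags about 1 in 20 only where all shares are equally precise, and here read numbers differ between daughters. CDK5RAP2, PIK3CD, PPP1R9B, PPP6R2 and PRKCSH were named for their large SD or for reads from 1 allele. That share of 15.3% was thus partly set by the choice of genes, and nothing is read from it. Over all kinase and phosphatase genes it was 15 of 92 (16.3%), beside 427 of 3646 genes (11.7%) in the whole table. Of the 9, 5 were in daughter 5, which also had the most kinase and phosphatase genes with 10 or more reads (102). The same count by daughter was not made over all genes, so nothing is read from it. PRKCSH stood at 0% of 184 reads in daughter 5, against 39.8% to 64.7% in 8 others, and PPP6R2 at 0% of 116 in daughter 5, against 41.5% to 60% in 7 others. PIK3C3 stood at 75.6% of 209 reads in daughter 5, against 42.5% to 57.7% in 7 others, PPP1R9B at 85% of 20 in daughter 5, against 41.7% to 58.9% in 8 others, and CDK5RAP3 at 62.6% of 99 in daughter 5, against 46.0% to 50% in 5 others. CAMK1D stood at 87.8% of 49 reads in daughter 9, against 32.6% to 52.3% in 6 others. CDK5RAP2 stood at 20.9% of 67 reads in daughter 7, against 40.8% to 58.5% in 8 others. PIK3CD stood at 78.3% of 23 reads in daughter 10, against 38.5% to 55% in 7 others. PTPN13 stood at 61.1% of 18 reads in daughter 8, against 48.4% to 53.7% in 6 others.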

How the results depend on the processing

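No kinase or phosphatase gene was called in any setting run, for either the parental or the title prefix comparison. Of all genes, the parental comparison called 0 in its main form, 2 without a read filter and 0 to 1 when daughters were left out in turn (1 without daughter 4). The replicate block, that is the daughter term, changed no call, with 0 genes called with and without it. It did change the p values of edgeR. An unadjusted p under 0.05 was found in 93 of 2981 genes with the block and in 0 without it. The title prefix comparison called 1 gene, 0 with DESeq2, 0 with 20 reads in 5 daughters, and 0 to 2 when daughters were left out in turn (0 without daughters 1, 3, 4 or 5 and 2 without 7 or 9). None of the genes called is a kinase or phosphatase gene. Values between 40% and 60% were 75.1% of those with 10 or more reads and 84.8% with 50 or more, so read number limits this share. Values with 90% or more on 1 side ranged from 0.612% to 1.20% when daughters were left out in turn, against 1.03% with all, and the lowest was that without daughter 5. Prefix 10480 alone was fitted on genes with reads in all 4 daughters.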

Other observations

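Across the 45 pairs of daughters, 42 had no kinase or phosphatase gene at 70% or more, or at 30% or less, on the same side in both (20 or more reads in each), 2 pairs had 1 and 1 pair had 2. Over all pairs this was 4 of 1566 comparisons (0.255%), beside 301 of 54832 (0.549%) for all genes. The pair with 2 was daughters 2 and 9, 2 of 39 kinase and phosphatase genes measured in both, beside 17 of 1378 genes of the whole table (1.23%). Their mother labels differ, but their father labels end alike, and whether both stand for 1 animal is not known. Pairs that do share a labelled parent had no such kinase or phosphatase gene. In daughters 4 and 5 these were 0 of 68, beside 17 of 2512 genes of the whole table (0.677%). In 6 and 10 they were 0 of 49, beside 2 of 1954 (0.102%), and in 7 and 8 0 of 28, beside 12 of 969 (1.24%). In 1 and 8 they were 0 of 6, beside 0 of 165, and in 1 and 7 0 of 5, beside 1 of 162 (0.617%). With so few kinase and phosphatase genes per pair, nothing is read from these counts. A link with kinship was not tested. The 2 genes of daughters 2 and 9 were PTPRN, at 84.3% and 78.6% paternal, and STK11IP, at 25.8% and 15.0%, so they lay on opposite sides of 50%. Among RefSeq's genes for T2T-MFA8v1.1 both are on chromosome 12 with 13 genes between them, 5 of which have a row in the count table. Of those 5, daughter 2 gave SPEG 44.4% (27 reads), and daughter 9 gave it 63.6% (11 reads) and OBSL1 56.8% (44 reads). In the daughters other than 2 and 9, PTPRN had 53.1% and 50.6% in the 2 measured, and STK11IP lay between 46.1% and 65% in 7. The pair was singled out after its values were seen, and no test of it was made.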
